A study of Mus musculus with 6 samples.

Results

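Synaptic adhesion genes, mostly of the immunoglobulin and leucine-rich repeat families, were measured in cold-sensitive and cold-insensitive neurons of the mouse preoptic area (POA). This region of the hypothalamus takes part in the control of body temperature. The genes were picked by symbol, with earlier results of these data known. They came from the neurexins, neuroligins, LRRTMs, SLITRKs, SALMs (Lrfn), netrin-G ligands (Lrrc4), LAR-type phosphatases, teneurins, latrophilins (Adgrl), FLRTs, contactins, L1 family, IgLONs, Ncam, Cadm, Dscam and related genes. The neurexins, neuroligins, teneurins, latrophilins and Cntnap genes among them belong to neither family. Of the 9583 genes in the deposited table, 74 matched, of 83 such protein-coding genes in the annotation. The remaining 9 (Adgrl4, Cntnap3, Cntnap5c, Flrt1, Il1rapl2, Lrrc43, Lrrc46, Lrrn4 and Lrrtm2) were not analysed here. The table holds no gene under 1 RPM (defined below) in any library. The symbol pattern also took in 6 numbered Lrrc4x genes (Lrrc40, Lrrc41, Lrrc42, Lrrc45, Lrrc47 and Lrrc49) and Lrrn4cl, which carry the stem of the name but are not known as synaptic adhesion genes, and the Lrrc4x genes are described apart.

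The tested neurons came from naïve wild-type C57Bl/6J mice, 6 to 14 weeks old by the labels, with no transgene. Acutely cultured POA neurons were imaged for calcium as the solution around them was cooled to about 10°C. Those in the top 7% of response amplitude were aspirated as cold-sensitive and those in the bottom 14% as cold-insensitive, in 3 pools of each type with about 100 to 200 neurons a pool, gathered over several isolations and thus over several animals. A pool averages its neurons, so fewer expressing neurons and less RNA per neuron cannot be told apart. The counts summed to 3316441 to 6818554 per library for cold-sensitive pools and to 5276233 to 5712983 for cold-insensitive pools, and a member had from 5 to 6590 counts in a library. All 6 of a set of 6 neuronal markers were in the table, and 0 of 6 microglial, 0 of 5 endothelial and 0 of 5 mural cell and fibroblast markers. A gene under 1 RPM in even 1 library was left out of the table, so absence from it does not mean absence from the pools. The neuronal markers summed to 5739, 7429 and 7769 RPM in cold-sensitive pools 1 to 3 and 4837, 5419 and 7256 RPM in cold-insensitive pools 1 to 3. These sums overlapped, and 5 of the 6 markers had a positive log2 fold change (cold-sensitive over cold-insensitive). The table held 4 of 9 markers of oligodendrocyte precursor cells (Pdgfra, Vcan, Bcan and C1ql1), with a summed level of 28.2, 30.1 and 67.2 RPM in cold-sensitive pools 1 to 3 and 597, 599 and 503 RPM in cold-insensitive pools 1 to 3. The other 5 (Cspg4, Olig1, Olig2, Sox10 and Gpr17) were not analysed here. Of the 4 in the table, Pdgfra, Vcan and Bcan were each lower in cold-sensitive neurons at an adjusted p at most 0.05 from edgeR. C1ql1 went the other way, with 9.77, 13.2 and 7.14 RPM in cold-sensitive pools and 8.28, 4.43 and 2.74 RPM in cold-insensitive pools. It did not pass. Of the oligodendrocyte markers, Mbp had 416, 143 and 73.6 RPM in cold-sensitive pools, against 193, 48.4 and 16.1 RPM in cold-insensitive pools. The 2 astrocyte markers of 8 that were in the table, Slc1a2 and Aldoc, summed to 122, 117 and 148 RPM in cold-sensitive pools and 336, 123 and 109 RPM in cold-insensitive pools. The part of these cells in the differences below was not tested. RPM are counts that the authors scaled to a common effective library size, and RPM per kb are divided by the length of a gene's merged exons.

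Synapses are held together and specified by pairs of surface proteins that meet across the cleft. On the presynaptic side neurexins and the LAR-type receptor phosphatases act as hubs, and neuroligins, LRRTMs, SLITRKs, SALMs and IL1RAPL proteins bind them from the postsynaptic side. Latrophilins bind teneurins and FLRTs, while contactins, L1 proteins, IgLONs, NCAMs and CADMs join neurites to each other and to glia, largely through immunoglobulin domains. In the hypothalamus, as elsewhere in the brain, most neurons carry many of these proteins at once.

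Among the 74 adhesion genes 1 fell, none (0) rose and 73 missed the threshold (edgeR's quasi-likelihood test, adjusted p at most 0.05 after Benjamini-Hochberg adjustment over all 9583 genes). The gene that fell was Thy1. Over all genes the same rule called 0.835% lower and 0.334% higher in cold-sensitive neurons, beside 1.35% for the 1 lower member. DESeq2 called 3 members lower (Thy1, Lrrtm1 and Adgrl2) and 1.57% of all genes, and edgeR with the replicate number as a block called 2 lower (Thy1 and Lrrtm1) and 1.19% of all genes. Limma-voom called 1 lower, Thy1, and none of these 3 fits called a member higher (0 in each). At an unadjusted p under 0.05, 10 members were lower and 2 were higher, that is 13.5% and 2.70% of the members, against 5.66% and 5.04% of all genes. Most adhesion genes leaned towards lower levels in cold-sensitive neurons, with a negative log2 fold change for 54 of 74 (73.0%, against 49.9% of all genes) and a median of -0.23, beside 0.0013 over all genes. A log2 fold change of -1 or below was found for 9 members (12.2%, against 6.45% of all genes) and one of 1 or above for 1 member (1.35%, against 4.71%). The summed level of all members was 7628, 7995 and 7918 RPM in cold-sensitive pools 1 to 3 and 9142, 8959 and 9302 RPM in cold-insensitive pools 1 to 3, and the pools of the types did not overlap. For single genes, 13 members were lower in every cold-sensitive pool than in every cold-insensitive pool (17.6%, against 8.18% of all genes) and 2 were higher in every one (2.70%, against 7.84%). With 3 pools a type, a two-sided exact permutation test of a single gene cannot go below p = 0.1, which all 15 of these genes had.

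**Figure D1:**
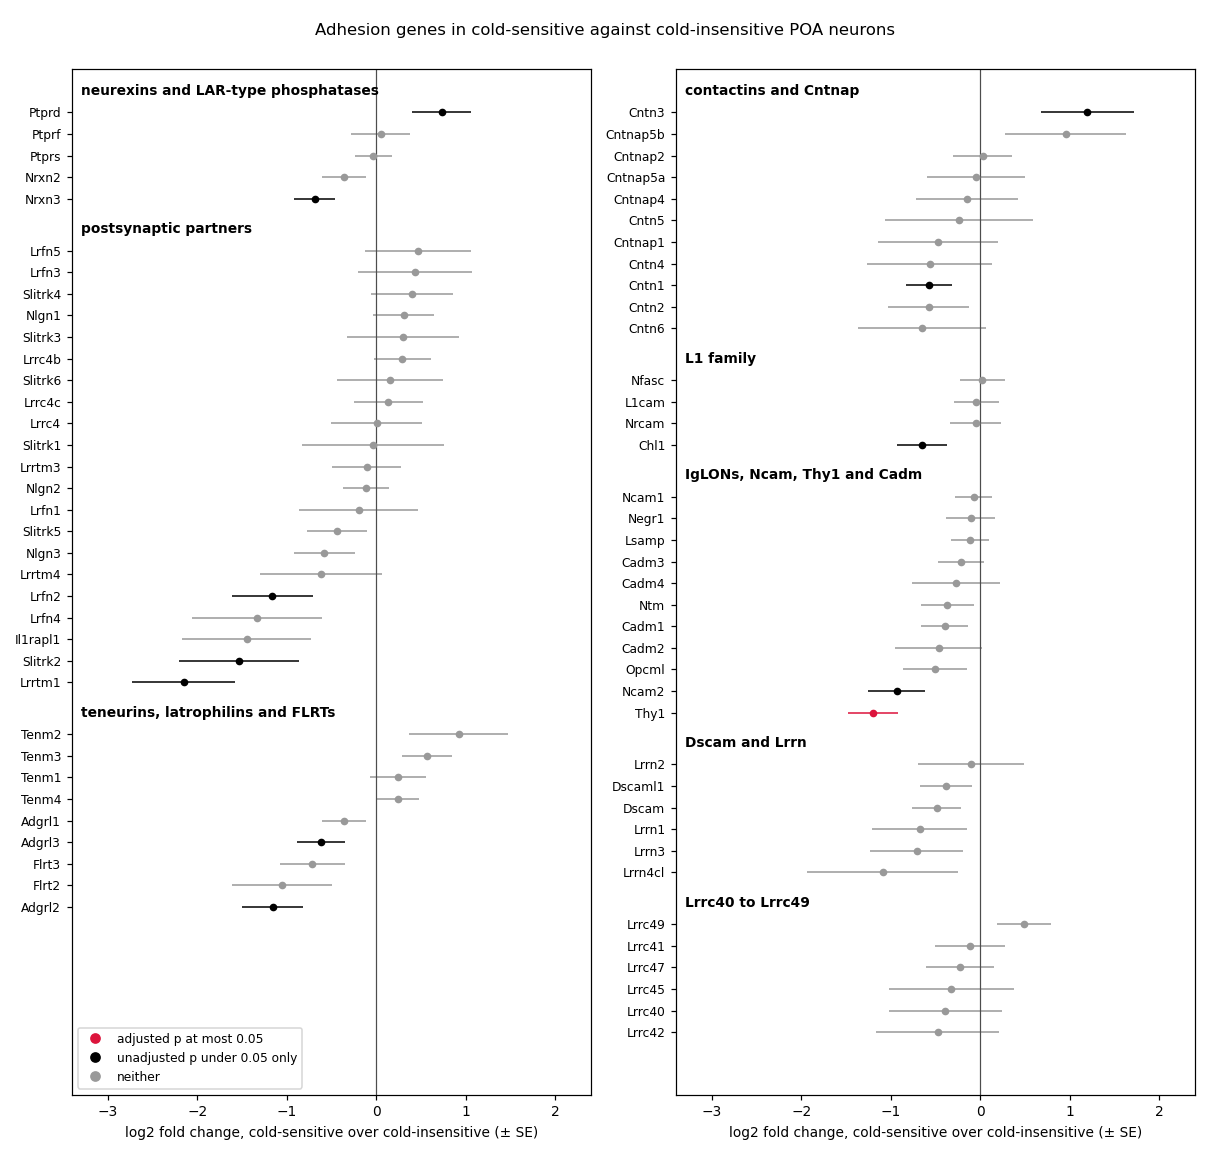
Log2 fold change of single adhesion genes (horizontal axis, cold-sensitive over cold-insensitive, bars are standard errors from edgeR), in their role groups, with an adjusted p at most 0.05 in red and an unadjusted p under 0.05 in black. Thy1 is the gene past the adjusted threshold, most points lie left of 0, and the points of the teneurins lie right of 0 while those of the latrophilins and FLRTs lie left.

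Thy1 encodes a small GPI-anchored immunoglobulin protein that covers the surface of most mature neurons. It had 78.7, 76.2 and 148 RPM in cold-sensitive pools 1 to 3 and 243, 202 and 255 RPM in cold-insensitive pools 1 to 3. Cold-sensitive pool 3 was the highest of its type and still lay below every cold-insensitive pool. The means were 101 ± 40.8 RPM in cold-sensitive and 233 ± 28.0 RPM in cold-insensitive neurons (SD, n = 3 pools each), which edgeR fitted as a log2 fold change of -1.20 with a standard error of 0.28 and an adjusted p of 0.0347. Per length, Thy1 was the second most abundant adhesion gene after Ncam1, at 55.8 RPM per kb over all pools. In the GRCm38 annotation Thy1 (ENSMUSG00000032011.5) spans bases 44043384 to 44048579 of chromosome 9, forward strand. Its call was lost without cold-sensitive replicate 1 (adjusted p = 0.0778 from edgeR) or 2 (0.161) and without cold-insensitive replicate 1 (0.118), 2 (0.103) or 3 (0.137), and held in the 9 other alternatives (adjusted p from 0.00686 to 0.0441) and without cold-sensitive replicate 3 (0.0126).

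Among the presynaptic hubs, none of the neurexins or phosphatases passed the test. Neurexins have many splice forms, which bind neuroligins, LRRTMs and cerebellins. Nrxn3 had 452, 292 and 376 RPM in cold-sensitive pools 1 to 3 and 463, 563 and 779 RPM in cold-insensitive pools 1 to 3. Its highest cold-sensitive pool came close to its lowest cold-insensitive pool (log2 fold change -0.69, standard error 0.23, adjusted p = 0.211 and unadjusted p = 0.00678 from edgeR). Per length, Nrxn3 was at 38.7 RPM per kb and Nrxn2 at 17.0. Nrxn2 had 230.4, 242 and 144 RPM in cold-sensitive pools and 270.3, 293 and 229 RPM in cold-insensitive pools, and the types overlapped (log2 fold change -0.36, standard error 0.24). Its exons overlap those of Slc22a12 on the opposite strand.

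The 3 LAR-type phosphatases bind SLITRKs, SALMs and IL1RAPL proteins. Ptprs was the most abundant of them, at 26.2 RPM per kb, and its pools lay close together, with 417, 409.7 and 340.4 RPM in cold-sensitive pools and 395, 433 and 362 RPM in cold-insensitive pools (log2 fold change -0.030, standard error 0.21). Ptprd had 161, 104 and 142 RPM in cold-sensitive pools 1 to 3, against 61.0, 128 and 56.0 RPM in cold-insensitive pools 1 to 3. Cold-insensitive pool 2 lay above cold-sensitive pool 2, so the types overlapped (log2 fold change 0.73, standard error 0.33, adjusted p = 0.398 from edgeR). Ptprf had a log2 fold change of 0.049.

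The postsynaptic partners made up the largest group, with 21 genes in the table, of which 0 passed edgeR's adjusted threshold and 3 were lower at an unadjusted p under 0.05. Their log2 fold changes ran from -2.15 to 0.47. Of all genes, 5.66% were lower at the unadjusted threshold. The largest difference of any adhesion gene was that of Lrrtm1, which encodes a leucine-rich ligand of neurexins at excitatory synapses. Lrrtm1 had 4.88, 14.7 and 12.8 RPM in cold-sensitive pools 1 to 3, from 17 to 86 counts, and 33.8, 63.0 and 47.8 RPM in cold-insensitive pools 1 to 3, from 200 to 370 counts. The highest cold-sensitive pool lay well below the lowest cold-insensitive pool. The means were 10.8 ± 5.22 and 48.2 ± 14.6 RPM in cold-sensitive and cold-insensitive neurons (SD, n = 3 pools each). The log2 fold change was -2.15 (standard error 0.57), and its adjusted p of 0.0657 from edgeR missed the threshold. With the replicate number as a block it was 0.0383, with DESeq2 0.00431 and with edgeR's likelihood ratio test 0.0172, all past the threshold, and with limma-voom it was 0.0939. Over all genes, lower calls made up 1.19% with the block, 1.57% with DESeq2, 1.29% with the likelihood ratio test and 0.647% with limma-voom. Without single libraries its adjusted p lay between 0.111 and 0.401.

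The other LRRTMs had smaller differences, and the genes were not tested against each other. Lrrtm3 had 64.9, 34.1 and 69.5 RPM in cold-sensitive pools and 57.8, 61.9 and 62.2 RPM in cold-insensitive pools (log2 fold change -0.11), and Lrrtm4 had a log2 fold change of -0.62 with overlapping pools. Of the LRRTM level per length, Lrrtm1 took 7.37%, 33.9% and 18.8% in cold-sensitive pools 1 to 3 and 34.0%, 55.4% and 48.0% in cold-insensitive pools 1 to 3. The lowest cold-insensitive share thus lay only just above the highest cold-sensitive one. This difference in share was not tested.

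Among the SALMs, Lrfn2, whose protein binds NMDA receptors, had 53.7, 35.9 and 13.5 RPM in cold-sensitive pools 1 to 3 and 56.9, 77.4 and 94.9 RPM in cold-insensitive pools 1 to 3. Cold-sensitive pool 1 lay just below cold-insensitive pool 1, the nearest pair of the types (log2 fold change -1.16, standard error 0.45, adjusted p = 0.303 from edgeR). Lrfn4, which binds the LAR-type phosphatases, had 13.8, 1.54 and 15.0 RPM in cold-sensitive pools and 24.2, 29.1 and 24.1 RPM in cold-insensitive pools, without overlap (log2 fold change -1.33, adjusted p = 0.544 from edgeR). Its lowest library, cold-sensitive pool 2, held 5 counts. The remaining SALMs had log2 fold changes of -0.20 for Lrfn1, 0.43 for Lrfn3 and 0.47 for Lrfn5, all with overlapping pools. Without single libraries the value of Lrfn5 lay between 0.12 (without cold-sensitive replicate 2) and 0.96 (without cold-insensitive replicate 3).

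The SLITRKs are ligands of the LAR-type phosphatases, and all 6 were in the table. Slitrk2 had 12.1, 2.76 and 17.9 RPM in cold-sensitive pools 1 to 3, against 28.6, 22.8 and 44.4 RPM in cold-insensitive pools 1 to 3, and the types did not overlap (log2 fold change -1.53, standard error 0.67, adjusted p = 0.386 from edgeR). The other SLITRKs ran from -0.44 for Slitrk5 to 0.40 for Slitrk4 on the log2 scale, with overlapping pools. Slitrk5 was the most abundant of the 6 per length, at 14.0 RPM per kb. Il1rapl1, another ligand of these phosphatases, was low throughout, with 8.33, 4.61 and 6.99 RPM in cold-sensitive pools and 23.7, 17.7 and 13.1 RPM in cold-insensitive pools, without overlap (log2 fold change -1.45, standard error 0.72, adjusted p = 0.486 from edgeR).

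The neuroligins bind neurexins, with neuroligin 1 found mainly at excitatory synapses, neuroligin 2 at inhibitory synapses and neuroligin 3 at both. Nlgn2 was the most abundant of the postsynaptic partners per length, at 33.4 RPM per kb, with 188, 229 and 141 RPM in cold-sensitive pools and 162, 221 and 219.8 RPM in cold-insensitive pools (log2 fold change -0.11, standard error 0.25). It took 57.7% to 67.2% of the neuroligin level per length in cold-sensitive pools and 57.3% to 65.4% in cold-insensitive pools. Nlgn1 ranged over 176, 72.8 and 105 RPM in cold-sensitive pools, wider than in cold-insensitive pools with 54.9, 115 and 116 RPM (log2 fold change 0.31). Nlgn3 had 39.4, 129 and 93.3 RPM in cold-sensitive pools and 156, 108 and 127 RPM in cold-insensitive pools (log2 fold change -0.58), and neither gene passed. The netrin-G ligand genes Lrrc4, Lrrc4b and Lrrc4c had log2 fold changes of 0.0065, 0.29 and 0.14. Lrrc4b, which also binds LAR-type phosphatases, was the second most abundant postsynaptic partner per length, at 29.1 RPM per kb, with 114, 93.4 and 73.8 RPM in cold-sensitive pools and 85.0, 77.9 and 66.4 RPM in cold-insensitive pools.

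**Figure D2:**
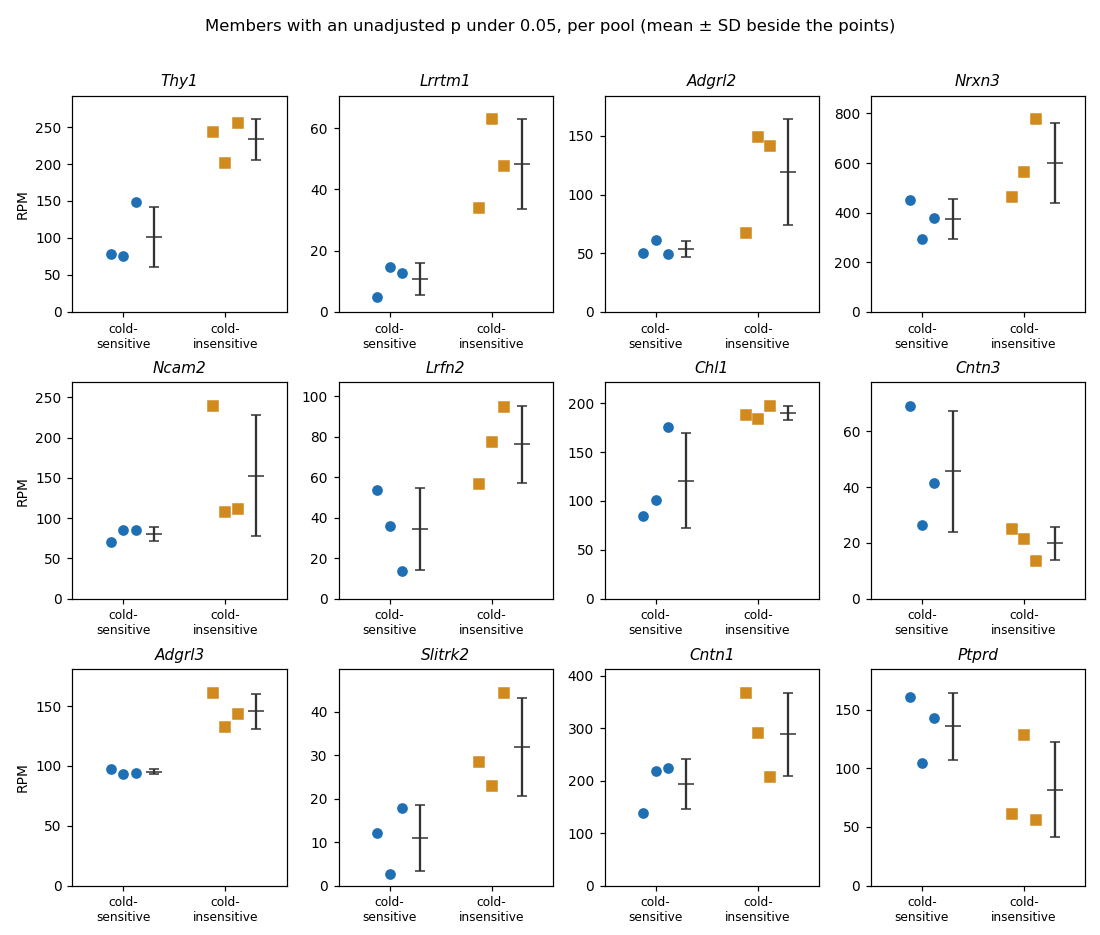
RPM (vertical axis, from 0) of the members with an unadjusted p under 0.05, with 1 point per pool, cold-sensitive pools as circles and cold-insensitive pools as squares, and mean ± SD beside them (n = 3). Of these genes Thy1 passed the adjusted threshold, the pools of Cntn1 and Ptprd overlap, and only Cntn3 and Ptprd have the higher mean in cold-sensitive neurons.

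The teneurins and latrophilins, which bind each other across the synapse, lay on opposite sides. Teneurins are large transmembrane proteins and latrophilins are adhesion G protein-coupled receptors first known as receptors of a spider venom toxin. All 4 teneurins had a positive log2 fold change, and all 3 latrophilins and both FLRTs a negative one, although no gene of the group passed the adjusted threshold. A negative value was found for 73.0% of the members and 49.9% of all genes, and all 3 netrin-G ligands had a positive one. The latrophilins summed to 311, 314 and 312 RPM in cold-sensitive pools 1 to 3 and 477, 492 and 456 RPM in cold-insensitive pools 1 to 3. The teneurins summed to 579.8, 533 and 599.5 RPM in cold-sensitive pools 1 to 3 and 401, 473 and 449 RPM in cold-insensitive pools 1 to 3. Neither pair of sums overlapped, and no test was made of the sums. A lower sum without overlap was not particular to the latrophilins, since the LRRTMs and the L1 family, among others, had one too. The sums of the neuroligins, SLITRKs, SALMs and contactins overlapped.

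Adgrl2 had 50.0, 61.4 and 49.4 RPM in cold-sensitive pools 1 to 3 and 66.9, 149 and 141 RPM in cold-insensitive pools 1 to 3. The cold-sensitive pools lay close together, and cold-insensitive pool 1 stood near them, apart from the other 2 of its type. Its log2 fold change of -1.15, with a standard error of 0.34, had an adjusted p of 0.114 from edgeR, with 0.0499 from DESeq2 and 0.0464 from edgeR without cold-insensitive replicate 1, the alternatives in which it passed. In that fit 0.417% of all genes were called lower. Adgrl3 had 97.4, 93.4 and 94.5 RPM in cold-sensitive pools and 161, 132 and 144 RPM in cold-insensitive pools, without overlap (log2 fold change -0.62, standard error 0.27, adjusted p = 0.385 from edgeR). Adgrl1, the most abundant latrophilin per length at 21.8 RPM per kb, had 163, 159 and 168 RPM in cold-sensitive pools and 249, 209.9 and 171 RPM in cold-insensitive pools. Its cold-insensitive pool 3 lay just above the cold-sensitive pools (log2 fold change -0.36, standard error 0.24). The exons of Adgrl1 overlap those of Gm10644 on the opposite strand, whose reads the counting cannot separate.

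Tenm3 was the teneurin whose pools did not overlap, with 162, 123 and 135 RPM in cold-sensitive pools 1 to 3 and 87.9, 83.1 and 111 RPM in cold-insensitive pools 1 to 3 (log2 fold change 0.57, standard error 0.28, adjusted p = 0.473 from edgeR). Tenm2 had the largest fold change of them, with 30.2, 37.8 and 89.6 RPM in cold-sensitive pools and 52.5, 19.4 and 11.2 RPM in cold-insensitive pools. Its means rest on cold-sensitive pool 3 and cold-insensitive pool 1, the highest of each type (log2 fold change 0.92, standard error 0.55, adjusted p = 0.604 from edgeR). Tenm4, with Tenm3 the most abundant teneurin per length (11.5 and 11.4 RPM per kb), and Tenm1 had log2 fold changes of 0.25 and 0.25, with overlapping pools. The FLRTs, leucine-rich partners of latrophilins, were lower on average but overlapped, with 14.7, 39.3 and 12.8 RPM of Flrt2 in cold-sensitive pools and 22.5, 44.5 and 70.9 RPM in cold-insensitive pools. Flrt3 had 33.6, 58.4 and 64.7 RPM in cold-sensitive pools and 60.3, 85.2 and 112 RPM in cold-insensitive pools (log2 fold change -0.71, edgeR's adjusted p = 0.511).

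**Figure D3:**
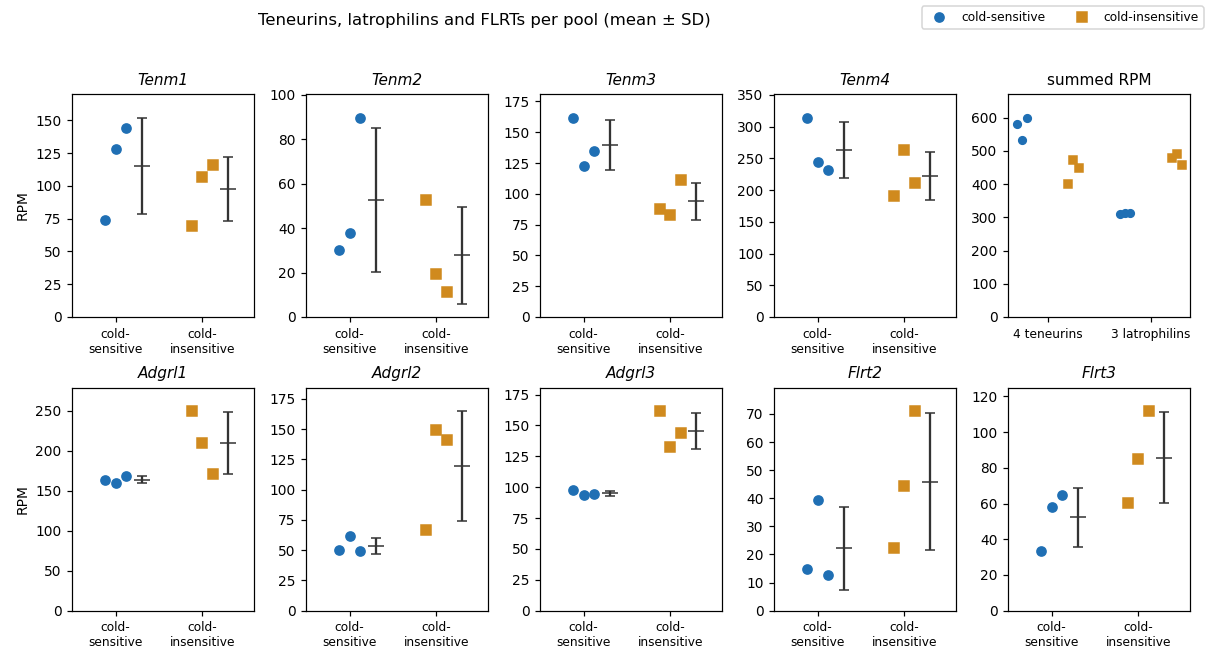
RPM per pool (vertical axis, from 0) of the teneurins, latrophilins and FLRTs, with circles for cold-sensitive and squares for cold-insensitive pools and mean ± SD beside them (n = 3), and the summed RPM of each of the first 2 families. The cold-sensitive latrophilin sums lie at 311 to 314 RPM, below all cold-insensitive sums, and the cold-sensitive teneurin sums at 533 to 600 RPM, above all cold-insensitive sums.

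Upstream windows are shown for Lrrtm1, the adhesion gene with the largest difference, and for the latrophilins Adgrl1 and Adgrl2, for each of which RefSeq lists 1 start site. Each window is the 250 bases before that start site on GRCm38.p6, written 5′ to 3′ on the gene's strand, at chr6:77242227-77242476 (forward), chr8:83899848-83900097 (forward) and chr3:148954636-148954885 (reverse). Capitals mark a GC box (GGGCGG), the CCAAT box spelled by its name, a TATA box (TATAAA) or a cAMP response element (TGACGTCA), searched on both strands.
Lrrtm1: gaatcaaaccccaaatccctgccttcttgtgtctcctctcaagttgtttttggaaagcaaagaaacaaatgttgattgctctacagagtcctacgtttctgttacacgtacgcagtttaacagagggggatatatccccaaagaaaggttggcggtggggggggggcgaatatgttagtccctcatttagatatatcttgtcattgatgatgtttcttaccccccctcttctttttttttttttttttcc
Adgrl1: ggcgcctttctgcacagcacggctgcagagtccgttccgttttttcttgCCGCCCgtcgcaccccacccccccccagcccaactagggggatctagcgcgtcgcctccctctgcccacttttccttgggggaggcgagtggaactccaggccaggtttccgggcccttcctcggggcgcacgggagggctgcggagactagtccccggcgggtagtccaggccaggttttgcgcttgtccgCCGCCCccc
Adgrl2: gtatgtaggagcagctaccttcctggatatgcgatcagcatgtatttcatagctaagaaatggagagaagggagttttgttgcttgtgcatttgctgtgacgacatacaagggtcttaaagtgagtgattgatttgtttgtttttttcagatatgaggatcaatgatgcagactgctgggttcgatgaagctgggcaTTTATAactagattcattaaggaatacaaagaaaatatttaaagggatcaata
The windows differ in base composition, with 42.0% G and C for Lrrtm1, 68.8% for Adgrl1 and 37.6% for Adgrl2, beside a median of 52.4% over the 32851 RefSeq windows. Lrrtm1 held none of the 4 motifs, Adgrl1 held 2 GC boxes and Adgrl2 held 1 TATA box, all on the strand opposite to the gene. Of all windows, 32.7% hold a GC box, 33.8% a CCAAT box, 12.4% a TATA box and 1.55% a cAMP response element. The Adgrl2 window lies inside the gene as GENCODE annotates it, which runs on the reverse strand from 148990555 to 148815583 of chromosome 3, so it is not the region before the outermost annotated start. The Lrrtm1 gene starts at 77242689 in GENCODE, further downstream than in RefSeq. The third latrophilin, Adgrl3, has 3 listed start sites and is not printed. Its windows held 60.0% to 76.8% G and C, each with at least 1 GC box, and 1 of them with a TATA box. RefSeq windows matched 58 of the 74 members.

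Contactins and the Cntnap (Caspr) proteins form complexes along axons and at nodes of Ranvier. Of their 11 genes 0 passed edgeR's adjusted threshold, with Cntn3 higher and Cntn1 lower at an unadjusted p under 0.05, and their log2 fold changes ran from -0.65 to 1.20. Of all genes, 5.04% were higher and 5.66% lower at the unadjusted threshold. Cntn3 had 69.2, 26.4 and 41.7 RPM in cold-sensitive pools 1 to 3, against 25.0, 21.3 and 13.5 RPM in cold-insensitive pools 1 to 3. It was the only adhesion gene besides Tenm3 with every cold-sensitive pool above every cold-insensitive pool, though cold-sensitive pool 2 and cold-insensitive pool 1 nearly met (log2 fold change 1.20, standard error 0.52, adjusted p = 0.385 from edgeR). Cntn1, the most abundant contactin per length at 25.5 RPM per kb, had 138, 218 and 224 RPM in cold-sensitive pools and 367, 292 and 207 RPM in cold-insensitive pools. Cold-insensitive pool 3 lay among the cold-sensitive pools (log2 fold change -0.58, standard error 0.26, adjusted p = 0.391 from edgeR).

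Several contactins varied widely between pools of a type. Cntn6 had 35.1, 2.46 and 18.7 RPM in cold-sensitive pools and 10.8, 33.9 and 43.8 RPM in cold-insensitive pools (log2 fold change -0.65, standard error 0.71). Cntn4 showed 3.45, 14.1 and 43.6 RPM in cold-sensitive pools and 47.0, 32.0 and 12.3 RPM in cold-insensitive pools (log2 fold change -0.57). Cntn2, with a log2 fold change of -0.58, and Cntn5, the least abundant adhesion gene per length at 1.21 RPM per kb, overlapped too. Cntnap2, whose protein clusters potassium channels beside nodes, had 92.5, 80.8 and 187 RPM in cold-sensitive pools and 149, 133 and 73.2 RPM in cold-insensitive pools (log2 fold change 0.026, standard error 0.33). Cntnap5b was at 0.95 on the log2 fold change scale (standard error 0.68), and its close relative Cntnap5a was at -0.050. Reads from stretches that such relatives share may have been lost or misplaced, so both values are uncertain. Cntnap1, a partner of contactin 1 beside the node, and Cntnap4 had -0.47 and -0.15, and the exons of Cntnap1 overlap those of Plekhh3.

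The L1 proteins link the cell surface to ankyrin and the cytoskeleton. Chl1 had 85.1, 101 and 176 RPM in cold-sensitive pools 1 to 3, against 188, 184 and 198 RPM in cold-insensitive pools 1 to 3, where the cold-insensitive pools lay close together and cold-sensitive pool 3 came near to them (log2 fold change -0.65, standard error 0.28, adjusted p = 0.373 from edgeR). L1cam, at 24.1 RPM per kb the most abundant of the family, had 215, 184 and 124 RPM in cold-sensitive pools and 169, 190.0 and 179 RPM in cold-insensitive pools (log2 fold change -0.043, standard error 0.26). Its exons overlap those of Arhgap4 on the same strand. Nfasc, at the initial segment of axons, had 289, 239 and 163 RPM in cold-sensitive pools and 255, 231 and 193 RPM in cold-insensitive pools, a log2 fold change of 0.023. Nrcam had one of -0.054, with cold-sensitive pools from 86.8 to 191 RPM on both sides of the cold-insensitive pools.

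The IgLONs, NCAMs and CADMs, with Thy1, are immunoglobulin proteins of the neuronal surface, and all 11 of their genes had a negative log2 fold change. So had 73.0% of the members, 49.9% of all genes and all 6 genes of the Dscam and Lrrn group. Ncam1 was the most abundant adhesion gene of all per length, at 118 RPM per kb, with 900.5, 1119 and 955 RPM in cold-sensitive pools and 859, 1123 and 1153 RPM in cold-insensitive pools. Its pools overlapped (log2 fold change -0.076, standard error 0.21, adjusted p = 0.953 from edgeR). Ncam2 had 69.8, 84.8 and 85.5 RPM in cold-sensitive pools 1 to 3 and 239.6, 108 and 111 RPM in cold-insensitive pools 1 to 3. Its mean in cold-insensitive neurons rests largely on pool 1, and the other cold-insensitive pools still lay above all cold-sensitive pools (log2 fold change -0.93, standard error 0.32, adjusted p = 0.215 from edgeR).

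The 4 IgLONs, GPI-anchored proteins that pair with each other, were Lsamp (-0.11 on the log2 fold change scale), Negr1 (-0.11), Ntm (-0.37) and Opcml (-0.51), all with overlapping pools. Lsamp was the most abundant of them per length, at 34.5 RPM per kb, and had 499, 666 and 547 RPM in cold-sensitive pools and 615, 533 and 705 RPM in cold-insensitive pools. Opcml was at 34.8, 111 and 128 RPM in cold-sensitive pools, of which pool 1 was far below the rest, and at 163, 98.3 and 129 RPM in cold-insensitive pools. The CADM genes, which encode the SynCAM proteins, ran from -0.47 for Cadm2 to -0.21 for Cadm3, with Cadm1 at -0.40 and Cadm4 at -0.27, and 0 of the 4 passed edgeR's test, the adjusted or the unadjusted one.

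Dscam and Dscaml1 mediate recognition between like neurites. Dscam had 102, 160.0 and 93.1 RPM in cold-sensitive pools and 173, 183 and 141 RPM in cold-insensitive pools (log2 fold change -0.49, standard error 0.28, adjusted p = 0.572 from edgeR). Dscaml1 had 78.7, 98.6 and 97.6 RPM in cold-sensitive pools and 105, 149 and 106 RPM in cold-insensitive pools, and its types were separated by a gap smaller than the spread within either (log2 fold change -0.39, standard error 0.29). The leucine-rich neuronal genes Lrrn1, Lrrn2 and Lrrn3 had -0.68, -0.10 and -0.71 and overlapped. Lrrn1 was spread widely within both types, with 17.8, 57.1 and 22.2 RPM in cold-sensitive pools and 89.5, 40.6 and 24.3 RPM in cold-insensitive pools. Lrrn4cl was among the lowest members, with 8.62, 2.76 and 1.34 RPM in cold-sensitive pools and 3.04, 10.9 and 12.9 RPM in cold-insensitive pools (log2 fold change -1.09, standard error 0.85).

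The numbered genes Lrrc40 to Lrrc49 gave no call by edgeR, adjusted or unadjusted, nor by DESeq2 or limma-voom, and their log2 fold changes ran from -0.48 for Lrrc42 to 0.49 for Lrrc49. Lrrc49, the product of which belongs to a tubulin polyglutamylase complex, was their most abundant member at 20.8 RPM per kb, with 157, 123 and 180.5 RPM in cold-sensitive pools and 74.2, 93.2 and 161 RPM in cold-insensitive pools. Lrrc47 followed at 18.6 RPM per kb, with a log2 fold change of -0.22, and its exons overlap those of Smim1 on the opposite strand. Without these 6 genes the median log2 fold change of the other 68 members was -0.23 and the count of calls was the same, 1 lower and 0 higher.

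The members varied somewhat more among cold-sensitive pools than genes at large. The median SD of log2 RPM between pools was 0.557 for members among cold-sensitive pools and 0.420 among cold-insensitive pools, beside 0.459 and 0.425 over all genes in cold-sensitive and cold-insensitive pools. Per length, the members' median level was 10.2 RPM per kb, beside 9.18 over all genes, and their exons were longer, with a median merged length of 7900 bases against 5210 over the genes matched to the annotation.

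Genes that work with these proteins were counted from lists of partners, and no list was tested as a set. Over all genes edgeR called 0.835% lower and 0.334% higher. At an unadjusted p under 0.05 from edgeR these shares were 5.66% and 5.04%. Of 36 extracellular partners 26 were in the table, 1 fell, 0 rose and 25 did not pass (edgeR; at an unadjusted p under 0.05, 3 were lower and 0 higher), with a median log2 fold change of -0.25. The gene that fell was Lgi1, which encodes a secreted ligand that links ADAM22 proteins across the synapse, with 13.8, 13.2 and 13.1 RPM in cold-sensitive pools 1 to 3 and 67.2, 52.6 and 41.5 RPM in cold-insensitive pools 1 to 3 (log2 fold change -2.01, standard error 0.50, adjusted p = 0.0478 from edgeR). The call of Lgi1 was lost when any one library was left out, with the replicate number as a block and with limma-voom, in each of which 0 extracellular partners were called. Of 28 intracellular partners in the table, of 29 listed, 0 passed edgeR, DESeq2 or limma-voom, with 4 lower ones and 1 higher one at an unadjusted p under 0.05 and a median log2 fold change of -0.0062. Cask, the scaffold that binds neurexin tails, was one of the 4, with 121, 152 and 131 RPM in cold-sensitive pools and 208, 229 and 201 RPM in cold-insensitive pools (log2 fold change -0.66, edgeR's adjusted p = 0.27). Dlg2, a postsynaptic scaffold, was the higher one, with 474, 492 and 615 RPM in cold-sensitive pools and 379, 334 and 307 RPM in cold-insensitive pools (log2 fold change 0.63, edgeR's adjusted p = 0.205).

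A list of 34 other adhesion genes held mostly immunoglobulin and leucine-rich repeat genes, but also Adgrb1, Adgrb2 and Adgrb3, which belong to neither class. Of these 34, 22 were in the table, where 1 rose, 1 fell and 20 did not pass edgeR's test. At an unadjusted p under 0.05 from edgeR, 5 were lower and 3 higher, against 5.66% and 5.04% of all genes. Their median log2 fold change was -0.27, beside -0.23 for the members, with 12 negative and 10 positive values. Lingo2, a leucine-rich and immunoglobulin protein of neurons, rose, with 65.5, 93.1 and 197 RPM in cold-sensitive pools 1 to 3, against 21.3, 42.8 and 52.1 RPM in cold-insensitive pools 1 to 3 (log2 fold change 1.62, standard error 0.41, adjusted p = 0.0478 from edgeR). Adgrb3, an adhesion G protein-coupled receptor that binds C1q-like proteins, fell, with 44.2, 96.4 and 113 RPM in cold-sensitive pools 1 to 3 and 212, 168 and 247 RPM in cold-insensitive pools 1 to 3 (log2 fold change -1.30, standard error 0.31, adjusted p = 0.0358 from edgeR). The number of higher genes on this list was 0 without cold-sensitive replicate 2 or 3 and without any one cold-insensitive replicate. The number of lower genes was 0 without cold-sensitive replicate 1 or 2 and without any one cold-insensitive replicate. Of the 10 enzymes that shed adhesion proteins or add polysialic acid to NCAM, 9 were in the table and 0 passed edgeR, DESeq2 or limma-voom, also at an unadjusted p under 0.05 from edgeR.

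**Figure D4:**
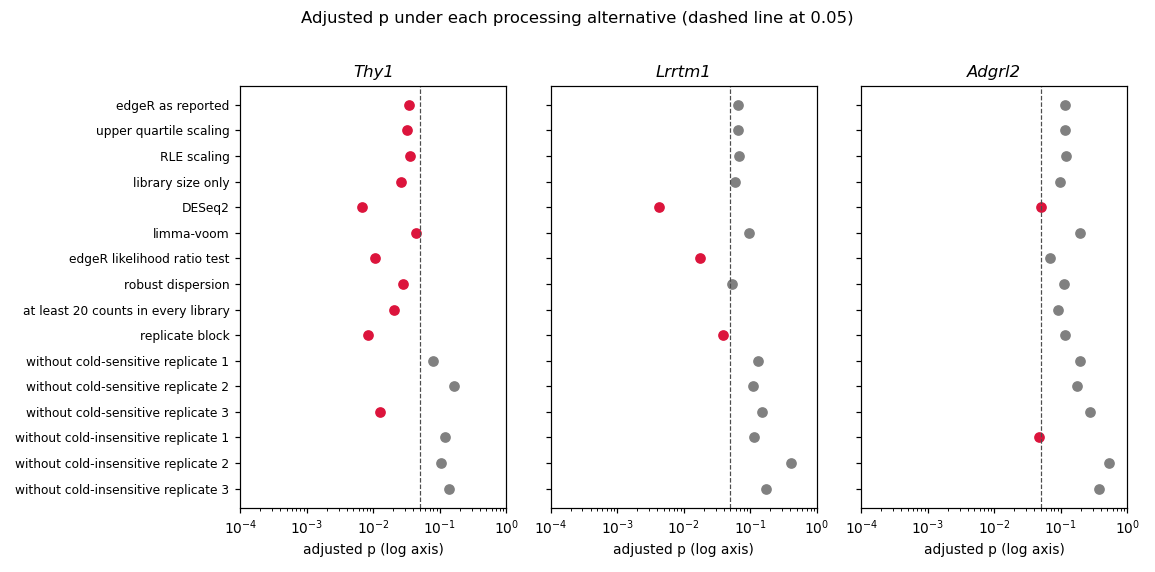
Adjusted p (horizontal log axis) of Thy1, Lrrtm1 and Adgrl2 under each processing alternative, with a dashed line at 0.05 and points past it in red. Thy1 is past it with every scaling, filter and tool shown but, of the 6 fits that leave out a library, only in the one without cold-sensitive replicate 3. Lrrtm1 is past it in 3 fits, and Adgrl2 in 2.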

How the data were processed

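RNA of 6 pools was sequenced, 3 per neuron type. The authors used Trimmomatic 0.36 for trimming and STAR 2.5.4b for alignment to GRCm38.p6, and counted reads over exons of protein-coding genes with featureCounts (Subread 1.6.2) at default parameters, which ignore strand. In the deposited table are raw counts for each gene and the authors' normalized signal, that is counts scaled to the effective library size (TMM, edgeR 3.22.3), printed here as RPM. Genes at 0 counts or below 1 RPM in at least 1 library were left out by the authors, so that its lowest count is 4. A further 5 columns, with the authors' fold change, its direction, p-value and group means, were not used, and 0 columns of per-sample values were left unmapped.

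Raw counts of all 9583 genes were tested in R 4.3.3 with edgeR 4.0.16 (TMM, estimateDisp, glmQLFit in its legacy form, glmQLFTest, neuron type as the only term) and adjusted by Benjamini-Hochberg over all of them. The standard error is the log2 fold change divided by the square root of F. Fold changes come from this fit and RPM from the deposited signal. Alternatives were other scalings, DESeq2 1.42.0, limma 3.58.1 (voom), edgeR's likelihood ratio test, robust dispersion, at least 20 counts in every library, the replicate number as a block, and single libraries left out. By the methods the pools of a type were separate biological replicates. By the methods both types were collected from the same coverslips within a biological replicate. The block takes equal replicate numbers as pairs, which is an assumption, since the methods do not match the numbers between types. Libraries of equal replicate number carry neighbouring label numbers, with the cold-sensitive pool first in replicates 1 and 2 and second in replicate 3. Same-numbered libraries deviated from their type means with correlations of 0.0436 to 0.0546. Libraries of unequal number were not compared in this way, so these correlations do not decide the pairing. On simulated counts of this comparison (9583 genes), edgeR recovered 14% of genes changed 2-fold, 70% of those changed 4-fold, 84% of those changed 8-fold and 90% of those changed 16-fold. Of its 138 calls there, 9 were of unchanged genes. The simulation drew its changed genes from all genes and used dispersions that edgeR itself had fitted, so these shares are not specific to the members.

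The members and lists were chosen with earlier results of these data known. Values per library were to be given for members called, members at an unadjusted p under 0.05, the largest fold change in each direction and the 2 most abundant members per length of each role group, and others were named after their values were seen. Gene positions, exon lengths and overlaps came from GENCODE M21 (GRCm38), which matched 74 of 74 members and 9483 genes in all, and the authors used release M16. The exons of 8 members overlap those of another protein-coding gene. The values of 1 member and of 1 marker are not reported here.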

Additional observations from a re-analysis of the deposited data

How the results depend on the processing

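The count of adhesion genes that fell was 1, and it was 3 with DESeq2 (Thy1, Lrrtm1 and Adgrl2), 2 with edgeR's likelihood ratio test and 2 with the replicate number as a block (Thy1 and Lrrtm1 in both), 1 in the other alternatives and 0 to 1 without single libraries. The 1 without cold-insensitive replicate 1 was Adgrl2. No adhesion gene rose in any of these fits. Their median log2 fold change stayed negative, from -0.30 to -0.18 over the alternatives and from -0.34 to -0.14 without single libraries, while that of all genes lay within 0.1 of 0. Lower calls over all genes were 80, but 124 with the likelihood ratio test, 150 with DESeq2 and 20 to 63 without single libraries, and higher calls were 32, but 55, 81 and 8 to 29. The count of lower extracellular partners was 1, and 0 with limma-voom, with the replicate block and without any single library (0 to 0). That of the other adhesion genes was 2 lower with DESeq2, and 0 to 1 lower and 0 to 1 higher without single libraries. The block changed no other call of these members or lists. Signs were followed for the 30 members that the rule for values per library takes. Of these, Nfasc and Cntnap2 changed sign outside the fits that leave out a library. Nfasc had -0.0020 with scaling by library size only, -0.066 with limma-voom and -0.0045 with the block, and Cntnap2 -0.015 and -0.037 with library size only and the block. Without single libraries the sign changed for Cntnap2, from -0.45 to 0.24, L1cam from -0.23 to 0.15, Lrrc42 from -0.90 to 0.11, Lrrc47 from -0.55 to 0.040, Nfasc from -0.18 to 0.22, Nlgn2 from -0.29 to 0.049 and Ptprs from -0.092 to 0.057. Over all libraries these 7 lay between -0.48 (Lrrc42) and 0.026 (Cntnap2). Lrrtm1 has 17 counts in a library and thus no value under the filter of 20 counts. At this depth and spread, changes of about 2-fold can be missed, and a member that did not pass is not shown to be unchanged. RNA integrity varied between samples by the methods, and its part was not tested. Leaving out the 8 members with overlapping exons left 1 lower and 0 higher.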
